A study of Mus musculus with 4 samples.

Results

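The Schlafen genes of the mouse were examined in the joint lining, or synovium, of arthritic and nonarthritic mice. The family was given as 7 genes, Slfn1, Slfn2, Slfn3, Slfn4, Slfn5, Slfn8 and Slfn9, and each was to be read from its probe set with exactly 1 gene symbol and the highest mean signal over the 4 arrays. By that rule 6 of the 7 had a probe set, among 22180 genes in all. Slfn9 had none, because its only probe set also carries the symbol of Slfn8. That shared probe set is described with its values and no test. The probe sets were thus chosen by their mean log2 signal over the 4 arrays, a value that is not itself a finding. Each of the 6 genes had only 1 probe set that qualified, so no member sat near the edge of that choice.

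The arthritic tissue came from C57BL/6J male mice aged 12 weeks with serum transfer arthritis, in which 150 microlitres of arthritogenic serum from K/BxN mice were injected into the peritoneum on days 0, 2 and 7. These were 2 arthritic pools, taken on day 10 at the height of inflammation, each made from 10 mice. They were set against 2 nonarthritic pools of 3 mice each, from the same strain and also aged 12 weeks. These mice were given phosphate-buffered saline according to the treatment protocol. The labels of the nonarthritic pools nevertheless name K/BxN serum and day 0, so what they received and when they were taken are not settled by the labels. Group, labelled day and pool size change together and cannot be told apart. Each pool was measured on 1 Affymetrix MoGene 2.0 ST array from 500 ng of total RNA taken around the ankle joint, and the values are the deposited log2 signals. Pooling hides the spread between mice.

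Schlafen proteins share an N-terminal region that can bind and, in several members, cut transfer RNA. The mouse family falls into short proteins (Slfn1 and Slfn2), intermediate ones (Slfn3 and Slfn4) and long ones with a helicase-like C-terminal part (Slfn5, Slfn8, Slfn9 and Slfn14). Many are induced by type I interferon and by microbial products in myeloid cells and lymphocytes, and mouse Slfn2 is known for keeping T cells and monocytes quiescent.

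The stretches directly upstream of the 7 annotated starts are shown here, and those of Slfn8 and Slfn9 are close copies. Slfn1, Slfn2 and Slfn4, the members that rose, share a run of 11 bases there that the others lack. It was sought as their longest common run, so that they share it was set by the search. Among the others, Slfn9 has no value of its own and cannot be counted as not rising. Each sequence is the 160 bases before the start, from RefSeq on GRCm38.p6, read 5′ to 3′ on the strand of the gene. For Slfn8, which has 2 starts in the table, the more upstream one was used. Capitals mark ACTTCCTGG, extended to ACTTCCTGGAG where those letters follow, in the first 4 sequences. In the last 3 they mark the core of the interferon-stimulated response element, which is GAAA, any 2 bases and GAAA, on either strand.
Slfn4, chr11:83175026-83175185, plus strand: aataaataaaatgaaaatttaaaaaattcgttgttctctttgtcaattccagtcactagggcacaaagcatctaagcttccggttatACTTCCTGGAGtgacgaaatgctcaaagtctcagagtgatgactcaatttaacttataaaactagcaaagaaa
Slfn1, chr11:83116660-83116819, plus strand: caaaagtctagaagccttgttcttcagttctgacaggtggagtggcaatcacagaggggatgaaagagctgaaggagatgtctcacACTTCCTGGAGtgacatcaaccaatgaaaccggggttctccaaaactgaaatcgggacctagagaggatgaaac
Slfn2, chr11:83064952-83065111, plus strand: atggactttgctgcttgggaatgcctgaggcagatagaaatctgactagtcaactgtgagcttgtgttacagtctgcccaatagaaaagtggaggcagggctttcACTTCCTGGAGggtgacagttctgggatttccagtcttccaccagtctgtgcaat
Slfn3, chr11:83191170-83191329, plus strand: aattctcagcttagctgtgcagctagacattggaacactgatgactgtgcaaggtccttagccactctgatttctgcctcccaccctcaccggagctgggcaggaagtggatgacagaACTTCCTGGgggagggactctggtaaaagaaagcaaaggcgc
Slfn5, chr11:82951942-82952101, plus strand: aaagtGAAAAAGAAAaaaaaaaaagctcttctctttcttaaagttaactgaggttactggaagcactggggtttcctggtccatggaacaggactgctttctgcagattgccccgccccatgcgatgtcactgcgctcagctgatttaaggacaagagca
Slfn8, chr11:83020811-83020970, minus strand: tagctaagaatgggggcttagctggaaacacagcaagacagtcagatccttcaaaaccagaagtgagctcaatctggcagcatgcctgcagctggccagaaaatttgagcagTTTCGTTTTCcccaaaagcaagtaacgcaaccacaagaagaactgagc
Slfn9, chr11:82991831-82991990, minus strand: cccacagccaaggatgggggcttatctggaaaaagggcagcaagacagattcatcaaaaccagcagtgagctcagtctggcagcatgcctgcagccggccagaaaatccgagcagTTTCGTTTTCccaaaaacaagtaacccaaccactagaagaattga

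The 250 bases before each start were searched on both strands. ACTTCCTGGAG stood in the windows of Slfn1, Slfn2 and Slfn4, where it began 74, 55 and 73 bases before the start, and in 0.0609% of 32851 mouse promoter windows of the same length, which is 20 windows with these 3 among them. It was the longest run common to the 3 windows. The shorter ACTTCCTGG, which it contains, also stood in Slfn3, 42 bases before the start, and in 0.7% of all windows. It holds the core that ETS factors, such as PU.1 of myeloid cells, can recognise. Slfn1 and Slfn4 shared a longer run, ACTTCCTGGAGTGAC. These runs were found by comparing the members after their changes were known, and neighbouring copies of 1 family can share sequence by descent, so the share is a description only.

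The core of the interferon-stimulated response element stood in Slfn5, Slfn8 and Slfn9 and in 2.98% of all windows. The AP-1 site, TGANTCA, stood in Slfn4 alone among the 7, 34 bases before the start, against 6.75% of all windows. TTCNNNGAA, the core of the gamma-activated site, stood in none of the 7 and in 7.02% of all windows. The windows of Slfn8 and Slfn9 were identical at 210 of 262 aligned positions (80.2%), while every other pair among the 7 lay between 45.5% and 53.4%.

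Of the 6 measured members, 3 rose in arthritic synovium (Slfn4, Slfn1 and Slfn2) and 0 fell in limma's gene test. Over all 22180 genes, 15.3% were called, with 8.72% higher and 6.62% lower in arthritic synovium. Rose and fell are used of genes with a Benjamini-Hochberg adjusted p under 0.05, adjusted over the whole table. At an unadjusted p under 0.05 the members' counts were also 3 and 0. The share of all genes at that unadjusted threshold was not counted and is above 15.3%. Unadjusted counts, here and for the lists below, therefore have no share of all genes to be read against. The median log2 fold change of the 6 was 0.69, against 0.005 over all genes. Both arthritic pools lay above both nonarthritic pools in 4 of the 6 (Slfn5 in addition), as they did in 30.2% of all genes; counting both directions, the groups did not overlap in 56.4% of all genes. The family was proposed with results of these arrays known, so these counts do not set it apart from other genes.

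**Figure D1:**
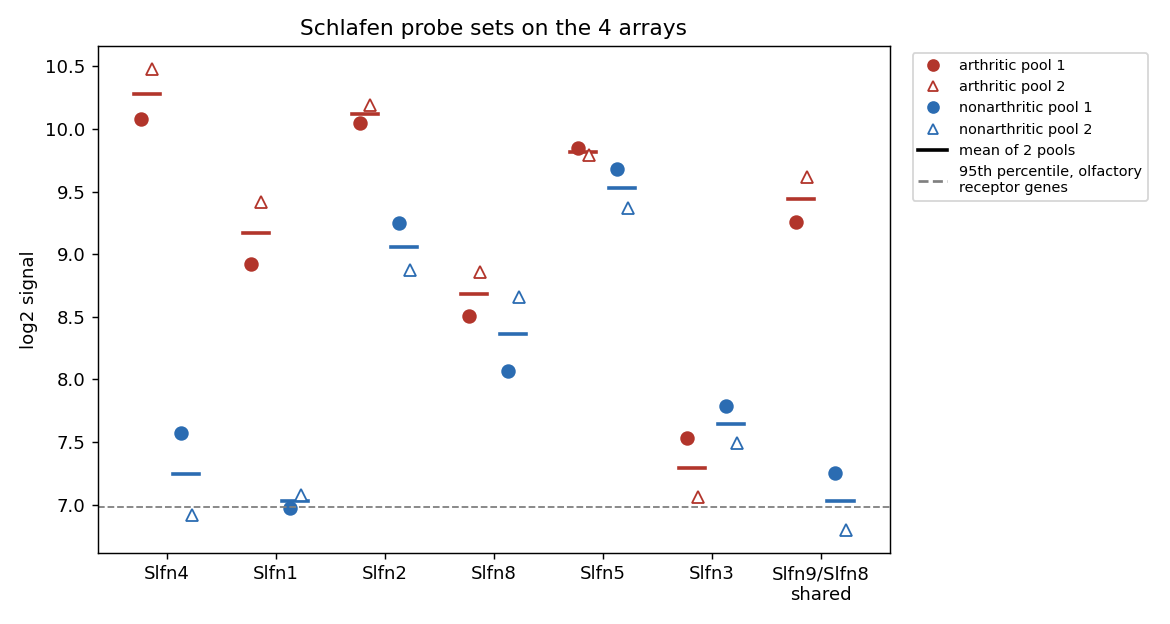
Log2 signal of the 6 measured Schlafen members and of the probe set shared by Slfn9 and Slfn8 (x axis) on the 4 arrays, with arthritic pools in red on the left and nonarthritic pools in blue on the right of each gene; bars are means of 2 pools, and levels compare only within a gene. The groups stand far apart for Slfn4, Slfn1, Slfn2 and the shared probe set, and overlap for Slfn8 and Slfn3. The dashed line is the 95th percentile of olfactory receptor genes averaged over the arrays, at 6.98. The text judges single pools by the percentile of their own array, which differs from this line.

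Slfn4, an intermediate member that in mice is found mainly in immature myeloid cells and falls as macrophages mature, changed most within the family. Its log2 signal was 10.08 and 10.48 in arthritic pools 1 and 2, against 7.57 and 6.92 in nonarthritic pools 1 and 2. The groups lay far apart, and the nonarthritic pools differed from each other more than the arthritic ones. Slfn4 averaged 10.28 ± 0.28 in arthritic and 7.25 ± 0.46 in nonarthritic synovium (SD, n = 2 pools each). It rose 8.20-fold, a log2 fold change of 3.035 ± 0.24 (SE, 95% interval 2.47 to 3.60; limma adjusted p = 0.000319), and ranked 25 of 22180 genes by rise. Without arthritic pool 2 the log2 fold change was 2.835 and the adjusted p 0.0594, above the threshold; leaving out any other pool kept it below.

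Slfn1, a short member that slows growth of mouse lymphocytes when overexpressed, followed. Its log2 signal was 8.92 and 9.42 in arthritic pools 1 and 2, against 6.97 and 7.08 in nonarthritic pools 1 and 2. Here the nonarthritic pools were close together and arthritic pool 2 read higher than arthritic pool 1. Slfn1 rose 4.42-fold (log2 fold change 2.145 ± 0.20 SE, 95% interval 1.69 to 2.60; limma adjusted p = 0.0005). Its adjusted p was 0.0526 without arthritic pool 2 and 0.0504 without nonarthritic pool 2.

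Slfn2, the short member whose loss in mice ends the quiescence of T cells and monocytes and whose protein shields transfer RNA from cleavage, rose less. Its log2 signal was 10.05 and 10.19 in arthritic pools 1 and 2, against 9.25 and 8.87 in nonarthritic pools 1 and 2. All 4 values were clear of background and the groups did not overlap. Slfn2 rose 2.08-fold (log2 fold change 1.06 ± 0.18 SE, 95% interval 0.64 to 1.48; limma adjusted p = 0.00739). Its adjusted p was 0.0954 without arthritic pool 1, 0.141 without arthritic pool 2 and 0.109 without nonarthritic pool 2.

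The 4 differences between an arthritic and a nonarthritic pool ran from 2.51 to 3.56 for Slfn4, from 1.84 to 2.45 for Slfn1 and from 0.80 to 1.32 for Slfn2 on the log2 scale. These ranges did not overlap. The difference between members was not tested.

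**Figure D2:**
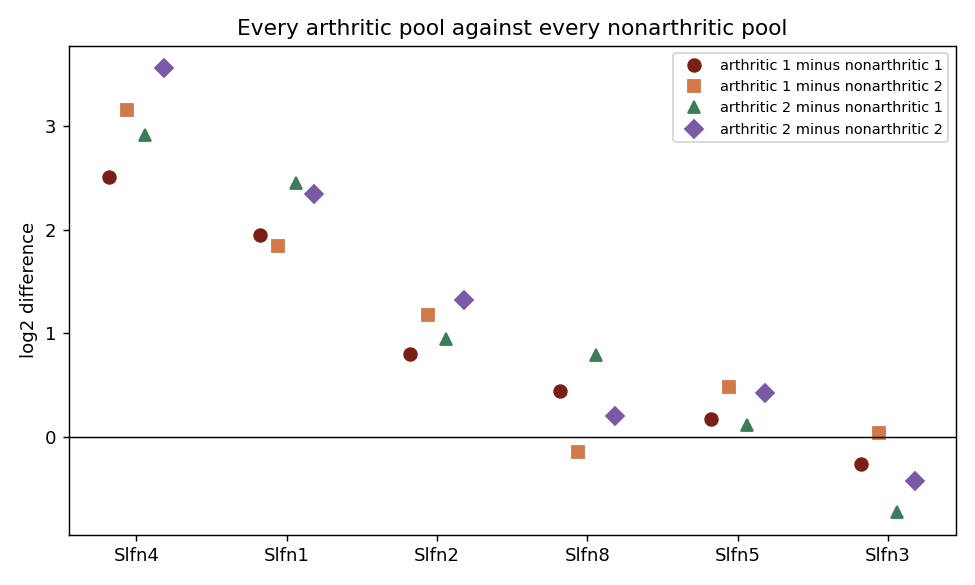
The log2 difference (y axis) of each arthritic pool minus each nonarthritic pool, 4 points per gene, for the 6 measured members (x axis). All points of Slfn4, Slfn1, Slfn2 and Slfn5 lie above 0, with Slfn4 between 2.51 and 3.56, while Slfn8 and Slfn3 have points on both sides of 0.

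The 2 largest rises start near background. On nonarthritic pool 2, Slfn4 (6.92) and Slfn1 (7.08) read below the 95th percentile of 1105 olfactory receptor genes on that array (7.36); on nonarthritic pool 1 that percentile was 6.86; Slfn4 (7.57) read above it and Slfn1 (6.97) only just. The nonarthritic mean of Slfn1, 7.03, lay below the mean of the percentiles of both nonarthritic arrays, 7.11, so its nonarthritic level was not measured above background. With values under that percentile raised to it, the folds were 7.04 for Slfn4 and 4.02 for Slfn1. No detection calls were used, and a low signal could not be told from no transcript.

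The long members read from their own probe sets did not pass. Slfn5, an interferon-induced nuclear protein in human cells, read 9.85 and 9.79 in arthritic pools 1 and 2, against 9.68 and 9.37 in nonarthritic pools 1 and 2. The groups of Slfn5 lay close together without overlap (log2 fold change 0.295 ± 0.17 SE, 95% interval -0.10 to 0.69; limma adjusted p = 0.308). Slfn8, which affects the severity of autoimmune demyelination in mice, read 8.51 and 8.86 in arthritic pools 1 and 2, against 8.07 and 8.66 in nonarthritic pools 1 and 2. The groups of Slfn8 overlapped (log2 fold change 0.32 ± 0.23 SE, 95% interval -0.21 to 0.85; limma adjusted p = 0.416). The intervals leave room for a rise of up to 1.61-fold for Slfn5 and 1.80-fold for Slfn8.

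The probe set that carries both Slfn9 and Slfn8 behaved unlike the one that carries Slfn8 alone. It read 9.26 and 9.62 in arthritic pools 1 and 2, against 7.25 and 6.80 in nonarthritic pools 1 and 2. The difference of the means was 2.415 on the log2 scale, or 5.33-fold, and 4.40-fold with the nonarthritic pool 2 value raised to that array's olfactory percentile. The Slfn8 probe set differed by 0.32. Whether the signal of the shared probe set comes from Slfn9, from parts of Slfn8 that its own probe set does not cover, or from both was not tested, and Slfn9 has no value of its own here. A further probe set with 2 symbols, Slfn5 and its antisense gene Slfn5os, differed by 0.005.

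Slfn3, an intermediate member studied in gut epithelium and T cells of rodents, was the only measured member that read lower in arthritic synovium on average. It read 7.53 and 7.06 in arthritic pools 1 and 2, against 7.79 and 7.49 in nonarthritic pools 1 and 2. On arthritic pool 2 and nonarthritic pool 2 Slfn3 lay only just above the olfactory percentile of the array (6.94 and 7.36). The groups overlapped and it did not pass (log2 fold change -0.345 ± 0.21 SE, 95% interval -0.82 to 0.13; limma adjusted p = 0.324). Slfn3 lies next to Slfn4 on the chromosome.

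**Figure D3:**
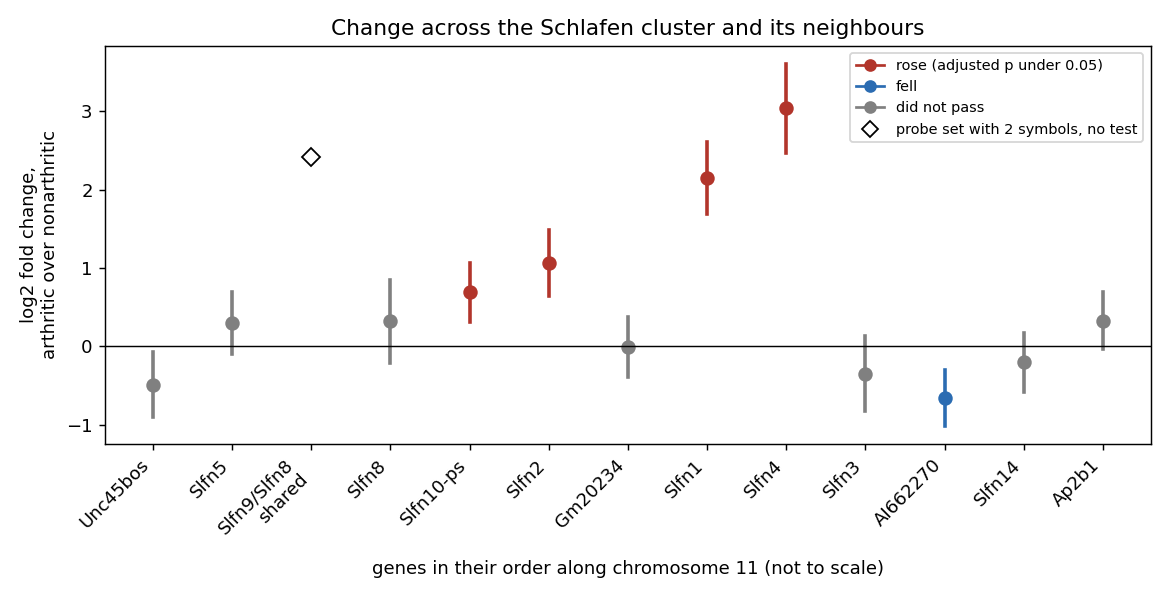
Log2 fold change, arthritic over nonarthritic, with its 95% interval (y axis) for measured genes in their order along chromosome 11 (x axis, not to scale); the open diamond is the difference of the probe set shared by Slfn9 and Slfn8, which was not tested. Slfn2, Slfn1 and Slfn4 rose, with Gm20234 (-0.005) between Slfn2 and Slfn1 and Slfn3 (-0.345) after Slfn4, neither of which passed.

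The 7 members form a cluster on chromosome 11. Of the Schlafen-named genes outside the members, Slfn10-ps, annotated as a pseudogene and lying between Slfn8 and Slfn2, rose by 0.69 ± 0.16 on the log2 scale, with 8.13 and 8.03 in arthritic pools against 7.29 and 7.49 in nonarthritic pools (limma adjusted p = 0.0257). Slfn14, whose protein is a ribosome-associated nuclease, read 6.11 and 6.09 in arthritic pools against 6.19 and 6.41 in nonarthritic pools, below the olfactory percentile on all 4 arrays (limma adjusted p = 0.48). Slfnl1, a Schlafen-like gene on chromosome 4, had a log2 fold change of 0.165 ± 0.18 (limma adjusted p = 0.618). The nearest measured neighbours of the cluster, Unc45bos (-0.485) and Ap2b1 (0.33), did not pass, with adjusted p of 0.115 and 0.207 in limma. Unc45bos read 5.78 to 6.49, below the olfactory percentile on all 4 arrays, so a lack of change in it was not shown. Inside the cluster, Gm20234 had a log2 fold change of -0.005, and AI662270, after Slfn3, fell by 0.655 (limma adjusted p = 0.0249). Both were picked out after their values were seen. Gm20234 read above the olfactory percentile only on arthritic pool 1, so it cannot be taken as an expressed gene without change. The genes that rose and those that did not pass stand side by side in the cluster.

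Interferon genes describe the pathway that the family is known to answer. Of 30 measured genes induced mainly by type I interferon, 13 rose and 0 fell in limma (17 and 1 at an unadjusted p under 0.05), with a median log2 fold change of 0.435. The largest rises were those of the oligoadenylate synthetase family, which senses double-stranded RNA: Oas1g rose by 1.795, Oasl2 by 1.575 and Oas2 by 1.56 on the log2 scale. Of 21 genes induced mainly by interferon gamma, 5 rose and 1 fell (7 and 3 at an unadjusted p under 0.05), with a median of 0.17. Cxcl10, a chemokine for T cells, rose by 1.57, the signalling inhibitor Socs1 by 0.83 and the immunoproteasome subunit Psmb10 by 0.805, and the guanylate-binding protein gene Gbp4 fell by 0.555. The nonarthritic means of Oas1g (5.54) and Cxcl10 (7.01) lay below the olfactory percentile of those arrays, so the sizes of their rises are uncertain. Both group means of Gbp4 lay below it (6.43 in arthritic and 6.99 in nonarthritic pools), and the size of its fall is not interpretable.

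Of 24 interferon ligands, receptors and signalling genes, 7 rose and 0 fell in limma (9 and 1 at an unadjusted p under 0.05), with a median of 0.19. Among them were the transcription factors Irf7 (1.275), Irf8 (1.01) and Stat2 (0.925). The ligand genes in the list did not pass, with Ifnb1 at -0.10 and Ifng at -0.12. Ifnb1 read between 4.41 and 4.62 and Ifng between 6.01 and 6.24, both below the olfactory percentile on all 4 arrays. A lack of change in these 2 ligands was thus not shown. Of 5 measured genes that cut, protect or methylate transfer RNA, 1 rose in limma, the transfer RNA-processing nuclease gene Elac2 (0.74), and 0 fell (3 higher and 0 lower at an unadjusted p under 0.05), with a median of 0.43. Of 11 quiescence genes of lymphocytes, 1 rose and 3 fell in limma (3 and 3 at an unadjusted p under 0.05), with a median of -0.07. The antiproliferative gene Btg1 rose (0.58). The forkhead factor gene Foxo1 (-1.09), the antiproliferative gene Tob1 (-0.965) and the glucocorticoid-induced Tsc22d3 (-0.665) fell.

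**Figure D4:**
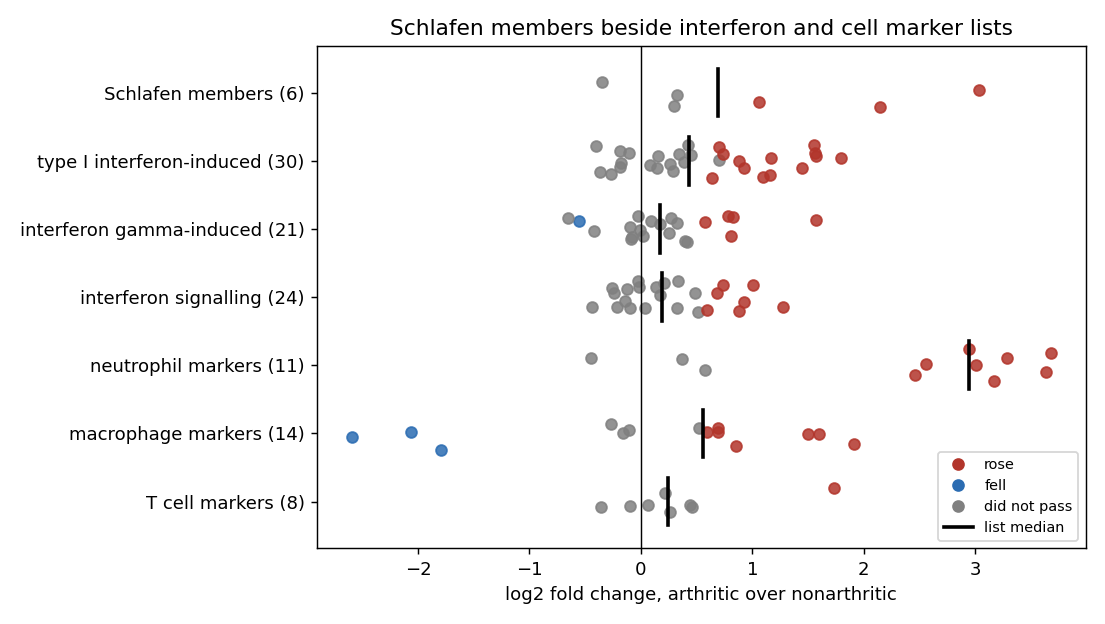
Log2 fold change, arthritic over nonarthritic (x axis), of each measured gene of 7 lists (y axis, number of genes in brackets); red genes rose, blue genes fell, grey genes did not pass, and the black bar is the list median. Slfn4 is at 3.035 and the largest value in the interferon lists is 1.795, for Oas1g, whose nonarthritic mean lay below the olfactory percentile.

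Markers of several cell types also differed between the groups, in both directions. Of 11 neutrophil markers, 8 rose and 0 fell in limma (9 and 0 at an unadjusted p under 0.05), and their summed linear signal was 12547 to 14445 in arthritic pools and 1488 to 1932 in nonarthritic pools. Cxcr2, Csf3r and S100a8, the first 3 of the list, rose by 3.63, 3.01 and 3.675 on the log2 scale. Mrgpra2b (-0.445), Camp (0.37) and Ngp (0.575) did not pass, and their means lay below the olfactory percentile in both groups. Monocyte and macrophage markers split, with 7 of 14 higher and 3 lower by the same test and a median log2 fold change of 0.555. Their summed signal was 29172 to 29962 in arthritic pools and 32576 to 33646 in nonarthritic pools. That sum follows the brightest genes. In nonarthritic pools these were Lyve1 (13.03 and 13.04) and Vsig4 (12.67 and 12.75), which both fell, so the lower sum does not describe the list. Csf1r was at -0.11, Adgre1 at 0.52 and Cd68 rose by 0.69. Among genes named after their values were seen, Mpeg1 (1.91) and Fcgr1 (1.595) had the largest rises of the list, and the 3 that fell were Lyve1 (-2.59), Vsig4 (-2.065) and Timd4 (-1.795), known from resident macrophages. The arthritic mean of Timd4 (6.73) lay below the olfactory percentile of those arrays. The part of these cells in the Schlafen changes was not tested, and in tissue RNA more cells of a type cannot be told apart from more RNA per cell.

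Lymphocytes are the cells in which Slfn1 and Slfn2 were first described. Of 8 T cell markers 1 rose, Cd4 (1.735), which macrophages can also carry, and 0 fell in limma (3 and 0 at an unadjusted p under 0.05); Cd3e was at 0.26, Cd3d at 0.22 and Cd3g at 0.445. Their summed signal was 1645 to 1899 in arthritic and 1244 to 1269 in nonarthritic pools. Cd4 was part of that sum, with 9.10 and 8.64 in arthritic pools against 7.27 and 7.00 in nonarthritic pools. The higher sum thus does not describe the list. Of 8 NK cell markers 1 rose, Gzmb (2.165), and 0 fell (1 and 0 at an unadjusted p under 0.05 in limma); Ncr1, Klrb1c and Klrk1 were at -0.165, -0.31 and 0.04. Of 6 B cell markers 1 rose and 3 fell, among them Ms4a1 (-1.74) and Cd79a (-1.175), with a median of -0.7375. The nonarthritic mean of Gzmb (6.09) and the arthritic means of Ms4a1 (5.66) and Cd79a (6.40) lay below the olfactory percentile of those arrays. Of 6 dendritic cell markers Flt3 rose (0.945) and Siglech fell (-0.725), and Xcr1 was at 0.015. Both group means of Cd3d, Ncr1, Klrb1c and Xcr1 lay below the olfactory percentile, as did the nonarthritic means of Cd3g and Klrk1. A lack of change in these genes was not shown.

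Among tissue markers, 6 of 11 synovial fibroblast genes rose and 1 fell; the lubricin gene Prg4 read 13.27 to 13.66 on the 4 arrays (-0.265), and Pdpn and Thy1 rose by 1.185 and 0.675. All 7 skeletal muscle and all 5 adipocyte markers fell, with median log2 fold changes of -2.835 and -2.55. Log2 fold changes were -2.835 for Ckm, -2.33 for Acta1 and -3.42 for Myh4, and -2.55 for Adipoq, -2.935 for Plin1 and -1.755 for Fabp4. The arthritic mean of Adipoq (6.69) lay below the olfactory percentile of those arrays, so the size of its fall is uncertain. Cartilage markers had 4 rising members of 6 (Col2a1 0.86, Acan 2.025, Comp -0.105) and 0 falling (5 and 0 at an unadjusted p under 0.05 in limma). Of 7 endothelial markers 2 rose and 0 fell in limma (3 and 1 unadjusted), with Pecam1 at 0.03, Cdh5 at 0.40 and Kdr at 0.73. None of the 3 measured red cell precursor genes passed in limma at either the adjusted or the unadjusted threshold, 0 of 3 (Epb42 0.005, Slc4a1 -0.155, Klf1 -0.28). Both group means of Epb42 and Klf1 lay below the olfactory percentile, so a lack of change in them was not shown.

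The genes whose 4 values ran most like those of Slfn4 were Trem1, Csf3r and Clec4n, all known from neutrophils or other myeloid cells. Likeness was the Euclidean distance between log2 values centred on each gene's mean, over 4 arrays, and it was 0.14, 0.147 and 0.291 log2 units. Trem1 read 9.26 and 9.70 in arthritic pools and 6.62 and 6.00 in nonarthritic pools, the same order of the 4 arrays as Slfn4. Both nonarthritic values of Trem1 lay below the olfactory percentile of their array. The genes nearest to Slfn1 were Sirpb1a (0.11), Mcemp1 (0.131) and Gm5150 (0.19). Sirpb1a read 9.41 and 9.98 in arthritic pools and 7.49 and 7.49 in nonarthritic pools. The likeness is over 4 arrays in 2 groups and carries no test.

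**Figure D5:**
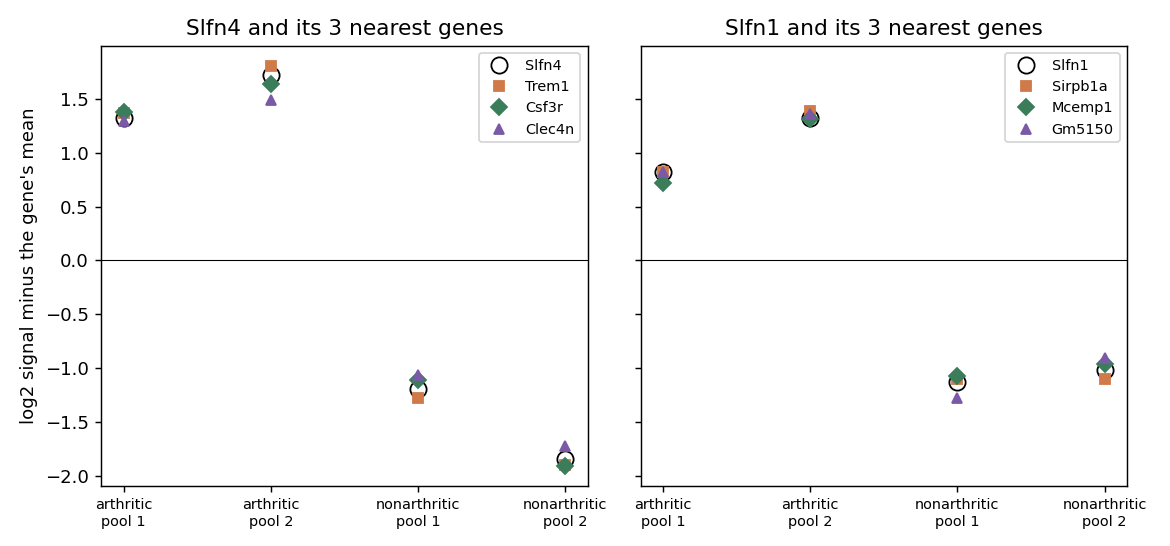
Log2 signal minus each gene's mean over the 4 arrays (y axis) by pool (x axis, arthritic pools left), for Slfn4 and for Slfn1 (open circles), each with its 3 nearest genes. In the Slfn4 group nonarthritic pool 2 lies lowest, and in the Slfn1 group arthritic pool 2 lies above arthritic pool 1.

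On the series as a whole, 1933 genes rose and 1469 fell, so 56.8% of calls were rises, or 67.1% with arrays centred on their medians. Principal component 1 took up 79.1% of the variance among the arrays. Leaving out 1 pool cut the 3402 calls to between 152 (without arthritic pool 2) and 1221 (without nonarthritic pool 1), and the members called were then 0 without arthritic pool 2, 1 without nonarthritic pool 2 (Slfn4), 2 without arthritic pool 1 (Slfn1 and Slfn4) and 3 without nonarthritic pool 1. At an unadjusted p under 0.05, 3 members passed in limma without arthritic pool 2. The number of arrays limits the precision of every value.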

How the data were processed

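The 4 pools were measured on 1 array each. The deposited values are log2 signals per probe set; per the submitters' processing notes the authors used RMA with Affymetrix Expression Console and Affymetrix Power Tools, whose versions and settings the labels do not state. That values are log2 was judged from their range (2.89 to 14.27). Of 41345 probe sets, 23521 had 1 gene symbol in the platform table, 1814 several and 16010 none; of the former, 23328 matched RefSeq GRCm38.p6 by gene number and 0 were renamed. Per gene the probe set with the highest mean was kept (22180 genes).

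Groups were compared with limma 3.58.1 in R 4.3.3 (lmFit, eBayes, no block, 2-sided; 2 residual and 5.98 prior degrees of freedom), Benjamini-Hochberg adjusted over all genes. Tested on simulated data of 22180 genes, the fit recovered 82 of 100 genes changed 4-fold and 3 of 100 changed 2-fold. No other genes were changed there, far fewer than the 3402 called in the data. The adjusted threshold was thus harder to pass, and these shares do not give the power of this comparison. P-values set each difference against the spread between pools, which limma moderates with the spread of the other genes. They do not take in the spread between mice.

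Members, lists and tests were chosen with earlier results of these data known. Named were all Schlafen genes, up to 3 largest rises and falls per pathway list, the first 3 genes per marker list, the 3 genes nearest in pattern to each of the 2 most changed members, and the cluster's neighbours; other marker genes were named after their values were seen. Alternatives were another quantile normalization, median centring, a dim-gene filter, a variance trend, probe set means, a stricter threshold, a replicate block and each pool left out. Sequences were searched with Biopython 1.88 in Python 3.11.15.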

Additional observations from a re-analysis of the deposited data

How the results depend on the processing

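Slfn4, Slfn1 and Slfn2 kept their direction and their call under quantile normalization again, median centring, the dim-gene filter, the variance trend, the mean of a gene's probe sets and the stricter threshold, and the other 3 measured members stayed uncalled. With the pool number as a replicate block, the same 3 members were called (adjusted p 0.0233, 0.019 and 0.0442) and 2243 genes in all; the numbers are not known to pair the pools (same-numbered pools deviated together with a correlation of 0.176 over genes). At an adjusted p under 0.01, 1481 genes were called. Leaving out each pool gave 152 to 1221 genes called and 0 to 3 members. In those 4 fits, log2 fold changes ran from 2.71 to 3.36 for Slfn4, 1.895 to 2.395 for Slfn1, 0.87 to 1.25 for Slfn2, 0.14 to 0.45 for Slfn5, 0.025 to 0.615 for Slfn8 and -0.58 to -0.11 for Slfn3. These fits have 1 residual degree of freedom, and the lone array of a group is assumed to vary like the other group. The simulation changed far fewer genes than were called here, so its 3 of 100 genes recovered at 2-fold do not give the power of this comparison. The intervals of the uncalled members leave room for a difference, so these members may still differ. Dim signal limits the folds of Slfn4, Slfn1 and Slfn3.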
